A study of Mus musculus with 4 samples.

Results

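Hypoxia-responsive genes outside the glycolytic pathway, 10 in all, were followed in mouse embryonic fibroblasts (MEFs) that lacked or carried Pf1. Phf12 encodes Pf1, a PHD finger subunit of Sin3 corepressor complexes. The genes were Egln1, Egln3, Pdk1, Bnip3, Ero1a, P4ha1, P4ha2, Vegfa, Ankrd37 and Slc2a1. They were taken by gene symbol from the array annotation, which gave all 10 of them, with 21 probe sets, among 18193 measured genes and 45101 probe sets. MEFs are primary cultures, here from torsos of embryos of day 13.5 or 14.5 from which the head and red organs had been taken. The knockout group was Pf1 KO lines 2 and 4 (genotype Pf1 -/-). Its controls were Pf1 WT lines 5 and 6 (genotype Pf+/+). All 4 lines carried the prefix 7706, were kept at 6% oxygen and gave RNA at passage 2 to 3, with 1 Affymetrix array per line. The labels do not say how the Pf1 allele was made or whether each line came from its own embryo. The line-to-line spread that enters the p-values given here may therefore be partly technical.

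Hypoxia-inducible factors (Hifs) are dimers of an oxygen-labile alpha subunit, such as Hif1a or Epas1, and the stable partner Arnt. With oxygen present, Egln prolyl hydroxylases mark the alpha subunit, and the Vhl ubiquitin ligase then removes it. When oxygen is short, the dimer binds hypoxia response elements with the core motif ACGTG or GCGTG and induces genes that limit mitochondrial oxygen use, raise glucose uptake, call in blood vessels and fold or hydroxylate secreted proteins. Egln1 and Egln3 are themselves targets, which closes a feedback loop.

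All 10 genes were lower in both Pf1 KO lines than in either Pf1 WT line, as were all 21 of their probe sets. Over all measured genes, 29.5% had both knockout lines below both wild-type lines, and over all probe sets 26.3%. In the limma fit over all genes, 7 of the 10 fell (Benjamini-Hochberg adjusted p under 0.05), none rose and 3 did not pass, where 6.95% of all genes were called lower. At an unadjusted p under 0.05, all 10 were lower, against 15.2% of all genes. The median difference of the 10 genes, Pf1 KO minus Pf1 WT, was -0.77 on the log2 scale, against -0.0027 over all genes. At least 1.5-fold lower were 8 of the 10 genes, and 5.64% of all genes. The 10 genes were chosen with earlier results of these data known. Their counts beside the shares of all genes are therefore a description and no independent test. Each difference is a log2 value followed by its standard error (SE) in the fit (n = 2 lines of each genotype), and every adjusted p is limma's. The SE is moderated: it joins the spread of a gene's own lines (2 residual degrees of freedom) with a prior taken from all genes. That prior held 3.04 degrees of freedom in the gene fit and 3.22 in the probe set fit. A gene with widely spaced lines can therefore have a smaller SE than its own lines alone would give. An exact permutation test of 2 against 2 lines cannot give a two-sided p below 0.333.

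The deposited values are log2 values centred on each probe set's median over the 4 arrays. A value near 0 therefore says nothing of how abundant a transcript is, and the middle 2 values of a probe set mirror each other around 0. What the values hold is the distance between lines. Phf12, the targeted gene, stood at -0.37 and -0.41 in Pf1 KO lines 2 and 4, against 0.56 and 0.37 in Pf1 WT lines 5 and 6, in probe set 1434922_at, which was called lower (-0.86 ± 0.109 SE, limma adjusted p = 0.0213). It showed 0.012 ± 0.0976 in probe set 1453579_at (limma adjusted p = 0.965). Averaged into 1 gene value, Phf12 missed the threshold (-0.42 ± 0.0934 SE, limma adjusted p = 0.0504). The labels do not place either probe set relative to the deletion. In bulk RNA, fewer cells of a type and less RNA per cell cannot be told apart. For the counts of markers and of the lists below, 6.95% of all genes were called lower and 5.21% higher. Of 12 fibroblast markers, 7 fell and 1 (Fn1) rose, with list means of -0.62 and -0.27 in Pf1 KO lines 2 and 4 and 0.68 and 0.20 in Pf1 WT lines 5 and 6. Of 9 smooth muscle markers, 7 rose and none fell, with list means of 0.44 and 0.30 in Pf1 KO lines 2 and 4 and -0.52 and -0.31 in Pf1 WT lines 5 and 6. Of 9 epithelial markers, 4 rose (Krt8, Dsp, Cldn4 and Cldn3) and 1 fell (Krt19), with list means of 0.31 and 0.53 in Pf1 KO lines 2 and 4 and -0.71 and -0.36 in Pf1 WT lines 5 and 6. Macrophage markers were not called (0 of 10 by limma, also 0 at an unadjusted p under 0.05), with means of -0.27 and 0.44 in Pf1 KO lines 2 and 4 and 0.43 and -1.21 in Pf1 WT lines 5 and 6. Of 10 endothelial markers, 1 rose (Emcn) and 2 fell (Tek and Egfl7), with list means of 0.074 and 0.058 in Pf1 KO lines 2 and 4 and 0.026 and -0.11 in Pf1 WT lines 5 and 6. These markers were named after their values were seen. Whether any marker is at background cannot be read from centred values. The part of these cell-type markers in the Hif target differences was not tested.

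**Figure D1:**
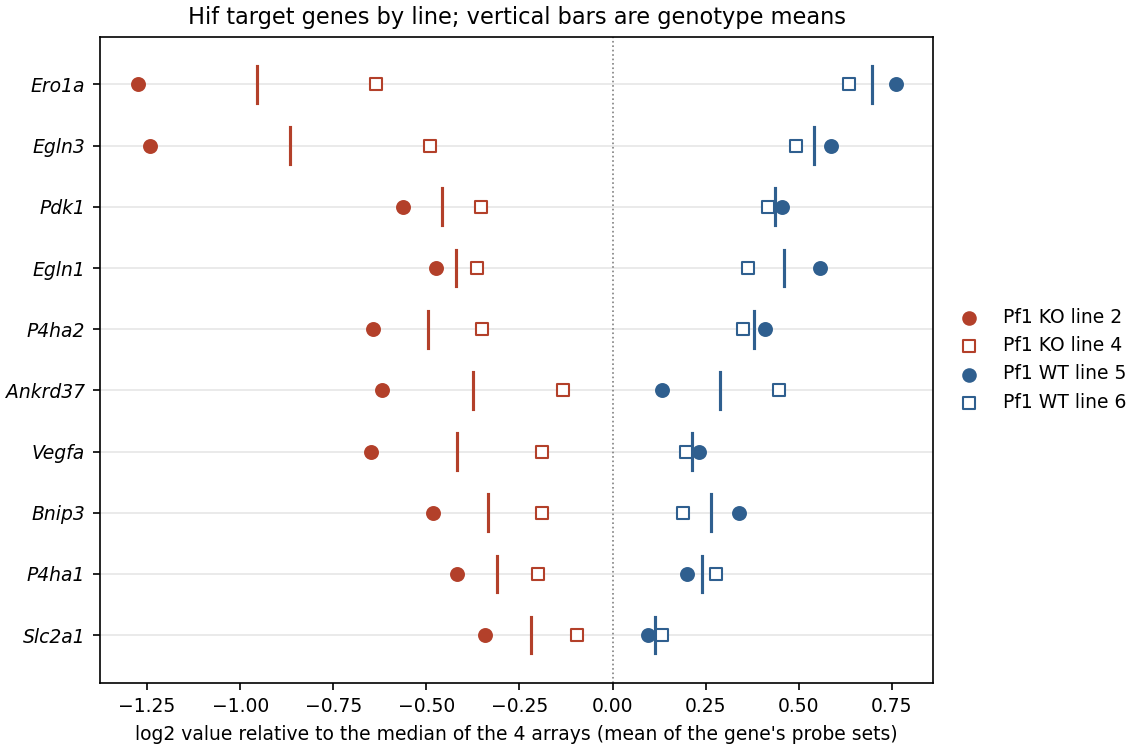
Values of the 10 Hif target genes in each line (x axis, log2 relative to the median of the 4 arrays, mean of the gene's probe sets; 1 row per gene, vertical bars are genotype means). The Pf1 KO lines lie left of 0 and the Pf1 WT lines right of 0 in every row, and Pf1 KO line 2 is the lowest point of each row.

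Promoter windows of the genes are shown because their transcripts were lower together and because the response element of the family has a known core. RefSeq windows of build GRCm38.p6 were found for all 10 genes. The 250 bases upstream of the tabled start were searched on both strands for both forms of the core. The ACGTG form occurred in 8 of 10 windows, against 19.7% of the 14452 windows of genes measured on the arrays. The GCGTG form also occurred in 8 of 10, against 38.9%. Either motif was present in 9 of 10, against 49.8%. The windows of the 10 genes had a median GC content of 68.6%, against 57.6% for the measured genes, and both motifs are rich in G and C. Matches can share bases, as on opposite strands in Bnip3 and in Ankrd37. Vegfa had neither in this window. The tabled starts of Ankrd37, P4ha1 and Pdk1 lie 564, 99 and 9 bases inside the annotated gene. The upstream bases are printed for the genes with the largest differences (Ero1a and Egln3), for P4ha2, whose window holds both motifs in close succession, and for Slc2a1, which had the smallest difference. Each reads 5′ to 3′ on the gene's strand, with both motifs, on either strand, in capitals. The windows are chr14:45318573-45318822 (minus strand), chr12:54203875-54204124 (minus strand), chr11:54100674-54100923 (plus strand) and chr4:119108495-119108744 (plus strand).
Ero1a: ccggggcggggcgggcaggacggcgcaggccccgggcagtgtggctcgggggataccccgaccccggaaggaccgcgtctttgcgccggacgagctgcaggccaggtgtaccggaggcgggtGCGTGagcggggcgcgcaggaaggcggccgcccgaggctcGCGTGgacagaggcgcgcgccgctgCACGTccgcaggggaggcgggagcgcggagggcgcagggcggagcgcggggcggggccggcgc
Egln3: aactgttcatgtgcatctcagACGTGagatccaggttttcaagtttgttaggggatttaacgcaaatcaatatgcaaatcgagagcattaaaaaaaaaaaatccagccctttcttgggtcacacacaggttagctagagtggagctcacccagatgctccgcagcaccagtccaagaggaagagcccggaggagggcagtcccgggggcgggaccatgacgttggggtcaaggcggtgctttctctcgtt
P4ha2: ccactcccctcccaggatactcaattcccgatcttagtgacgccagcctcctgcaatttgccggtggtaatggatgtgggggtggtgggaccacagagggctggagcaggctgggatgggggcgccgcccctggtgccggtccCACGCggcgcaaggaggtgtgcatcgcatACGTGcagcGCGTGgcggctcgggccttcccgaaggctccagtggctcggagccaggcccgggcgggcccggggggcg
Slc2a1: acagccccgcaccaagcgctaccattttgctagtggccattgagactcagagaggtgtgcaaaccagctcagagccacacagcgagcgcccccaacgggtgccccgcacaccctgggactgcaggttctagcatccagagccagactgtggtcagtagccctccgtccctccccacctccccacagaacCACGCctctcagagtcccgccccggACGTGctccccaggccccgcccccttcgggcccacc
Counted from the first base of a match to the start, the first form lay 63 bases upstream in Ero1a (on the opposite strand), 229 bases upstream in Egln3, 78 bases upstream in P4ha2 and 36 bases upstream in Slc2a1. The Egln3 window, at 50.8% GC below the median of the measured genes, held the first form once and the second form not at all. A match is a description of the sequence, not evidence of binding. The genes were listed as Hif targets, so a high share of windows with the core may follow from that choice.

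Oxygen sensing came first among the roles. Egln1, also called Phd2, is the main hydroxylase that sets Hif-alpha turnover. Its values were -0.47 and -0.36 in Pf1 KO lines 2 and 4, against 0.56 and 0.36 in Pf1 WT lines 5 and 6. The groups did not overlap, and the gap between them was larger than the gap within either. Egln1 fell 1.84-fold (-0.88 ± 0.105 SE, limma adjusted p = 0.0177), and both probe sets were called (-0.77 for 1423785_at and -0.99 for 1451110_at). Egln3, or Phd3, a hydroxylase known for strong induction by hypoxia, stood at -1.24 and -0.49 in Pf1 KO lines 2 and 4, against 0.59 and 0.49 in Pf1 WT lines 5 and 6. Line 2 was far below line 4, by 0.75, whereas the wild-type lines were 0.096 apart. Egln3 fell 2.65-fold (-1.41 ± 0.251 SE, limma adjusted p = 0.0326), nearly alike in its probe sets (-1.42 and -1.39, both called). By size of decrease, Egln3 was 170th and Egln1 476th of all 18193 genes.

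The largest difference was that of Ero1a, the oxidase of the endoplasmic reticulum that passes electrons from protein disulfide isomerase to oxygen. It stood at -1.28 and -0.64 in Pf1 KO lines 2 and 4, against 0.76 and 0.64 in Pf1 WT lines 5 and 6. Both knockout lines were low, line 2 the more so. Ero1a fell 3.14-fold (-1.65 ± 0.22 SE, limma adjusted p = 0.0197) and was 97th of all genes by size of decrease. Its 3 probe sets, all called, gave -1.53, -1.85 and -1.58. Among 9 genes of oxidative folding, Ero1a and the thiol peroxidase Gpx7 (-0.51 ± 0.0824, limma adjusted p = 0.0274) fell, none rose and 7 did not pass. Its paralog Ero1b was at -0.16 (limma adjusted p = 0.366).

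P4ha1 and P4ha2 encode alternative catalytic alpha subunits of collagen prolyl 4-hydroxylase, which needs oxygen to stabilise the collagen triple helix. P4ha2 stood at -0.64 and -0.35 in Pf1 KO lines 2 and 4, against 0.41 and 0.35 in Pf1 WT lines 5 and 6, in its single probe set. It fell 1.84-fold (-0.88 ± 0.122 SE, limma adjusted p = 0.0214). P4ha1 stood at -0.42 and -0.20 in Pf1 KO lines 2 and 4, against 0.20 and 0.28 in Pf1 WT lines 5 and 6. The separation was narrower than that of P4ha2, with no overlap. P4ha1 fell 1.46-fold (-0.55 ± 0.107 SE, limma adjusted p = 0.0382), with probe set 1426519_at called (-0.66) and 1452094_at not (-0.44, limma adjusted p = 0.0832). Whether the paralogs differed from each other was not tested, and their 95% intervals, -1.19 to -0.56 for P4ha2 and -0.82 to -0.27 for P4ha1, overlapped.

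Of the 10 genes of collagen prolyl hydroxylation, 4 fell, none rose and 6 did not pass, with a median difference of -0.51. Beside the alpha subunits, the prolyl 3-hydroxylase family gene P3h3 (-0.94 ± 0.085 SE, limma adjusted p = 0.0137) and Crtap, the partner of the prolyl 3-hydroxylase complex (-0.51 ± 0.0891, limma adjusted p = 0.0319), fell. P3h3 and Crtap are not in the fixed list of Hif targets. P4hb, the beta subunit, was at -0.36 (limma adjusted p = 0.0697).

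**Figure D2:**
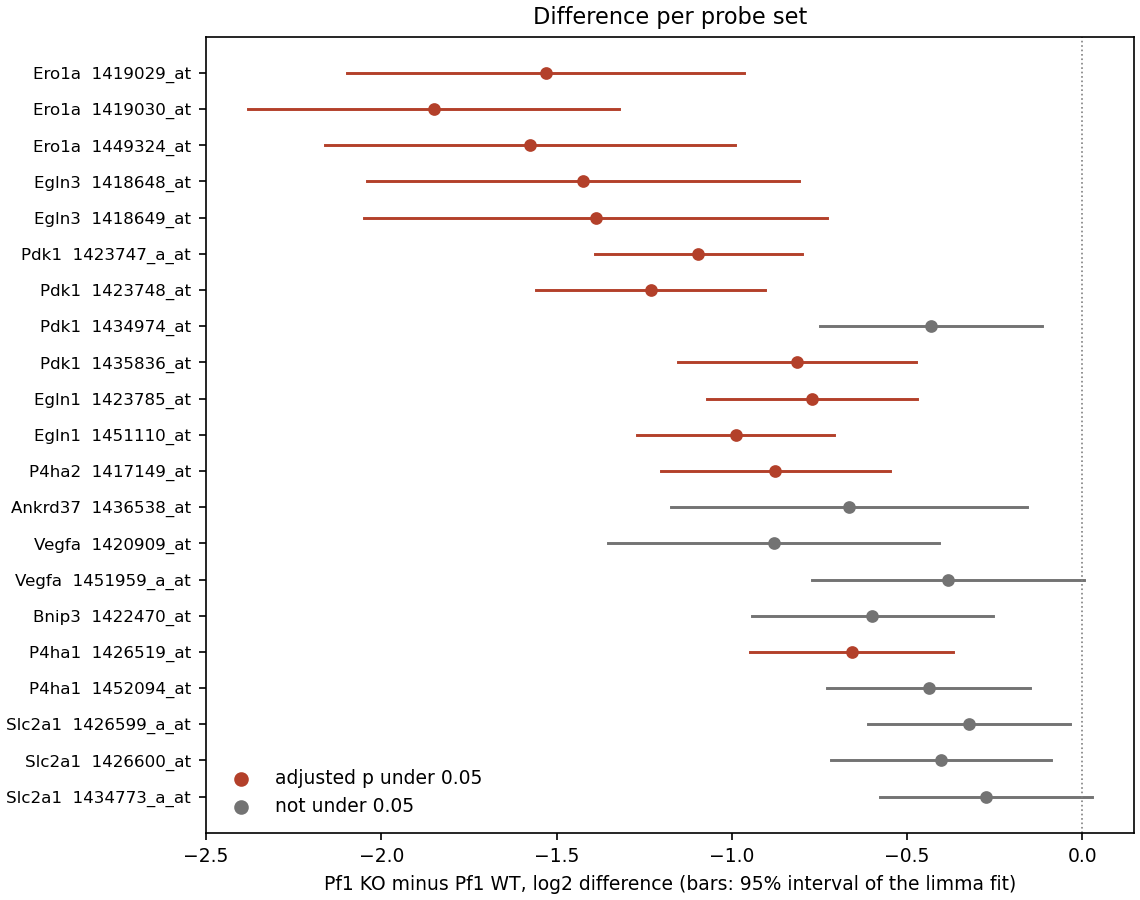
Difference of each of the 21 probe sets (x axis, Pf1 KO minus Pf1 WT, log2; points are fitted differences, bars 95% intervals of the limma fit over all probe sets; 1 row per probe set, grouped by gene). All points lie below 0, and 12 of the 21 were called lower.

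Pdk1 encodes a kinase that switches off pyruvate dehydrogenase, so that pyruvate stays out of the mitochondrial citrate cycle. It stood at -0.56 and -0.35 in Pf1 KO lines 2 and 4, against 0.45 and 0.42 in Pf1 WT lines 5 and 6. The lines of each genotype lay closer together than the groups did. Pdk1 fell 1.86-fold (-0.89 ± 0.103 SE, limma adjusted p = 0.0166), the smallest p of the 10 genes. Its 4 probe sets differed in size: 1423747_a_at, 1423748_at and 1435836_at were called at -1.10, -1.23 and -0.81, while 1434974_at gave -0.43 (limma adjusted p = 0.105). At the level of probe sets, 12 of the 21 were called lower and none higher, where 4.4% of all probe sets were called lower and 3.92% higher. Probe sets of the same gene were read from the same RNA and are not independent. A gene with several probe sets enters these counts more than once.

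Genes around pyruvate dehydrogenase went both ways. Of 11 measured, 4 fell, 2 rose and 5 did not pass. The kinase gene Pdk3 (-0.66 ± 0.0866 SE, limma adjusted p = 0.0196) fell with Pdk1, and so did both phosphatase genes that reverse the kinases, Pdp1 (-0.82 ± 0.0997, limma adjusted p = 0.018) and Pdp2 (-0.91 ± 0.114, limma adjusted p = 0.0184). Pdk4, the kinase gene known for induction by fasting, rose 3.73-fold. It stood at 1.73 and 0.58 in Pf1 KO lines 2 and 4, against -0.92 and -0.58 in Pf1 WT lines 5 and 6 (1.90 ± 0.387 SE, limma adjusted p = 0.0421). Dlat, the E2 subunit of the complex, also rose (0.55 ± 0.0992, limma adjusted p = 0.0328). Pdk2 was at -0.19 (limma adjusted p = 0.368).

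Bnip3, a protein of the outer mitochondrial membrane that recruits mitochondria to autophagy, stood at -0.48 and -0.19 in Pf1 KO lines 2 and 4, against 0.34 and 0.19 in Pf1 WT lines 5 and 6. The closest lines of the groups were 4 and 6. Bnip3 fell 1.52-fold in the fit over genes (-0.60 ± 0.13 SE, limma adjusted p = 0.0478), but its single probe set missed the threshold in the fit over probe sets (limma adjusted p = 0.0608). The call also ended with array weights (limma adjusted p = 0.056), with the median of probe sets (0.0524) and with probe sets of plain suffix (0.0513), with differences of -0.60 in all 3. Over the alternatives that kept all lines, its adjusted p ran from 0.0278 to 0.056. Among 7 measured genes of mitochondrial autophagy, the kinase gene Pink1 (-0.81 ± 0.137, limma adjusted p = 0.0302) and Bnip1 (-0.53 ± 0.0992, limma adjusted p = 0.0358) fell as well, and the prohibitin gene Phb2 rose (0.53 ± 0.103, limma adjusted p = 0.0379).

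Vegfa, the growth factor that draws blood vessels to tissue short of oxygen, did not pass the test. Its values were -0.65 and -0.19 in Pf1 KO lines 2 and 4, against 0.23 and 0.20 in Pf1 WT lines 5 and 6. Line 4 lay nearer to the wild-type lines than to line 2. The difference was -0.63 ± 0.165 SE (limma adjusted p = 0.0721, 95% interval -1.06 to -0.21), and without Pf1 KO line 2 it was -0.40. Vegfa passed with quantile normalisation (limma adjusted p = 0.0469), with probe sets of plain suffix (0.0460) and without the least variable 25% of genes (0.0368), and its adjusted p ran from 0.0368 to 0.0936 over the alternatives that kept all lines. Its probe sets gave unequal sizes, -0.88 for 1420909_at (limma adjusted p = 0.0525) and -0.38 for 1451959_a_at (limma adjusted p = 0.201). Only 1420909_at has a plain suffix, so the pass with such probe sets rested on it alone. Among 10 Vegf ligands and receptors, 3 fell, 1 rose and 6 did not pass. The placental growth factor gene Pgf (-1.19 ± 0.195, limma adjusted p = 0.0282), Vegfb (-0.73 ± 0.0927, limma adjusted p = 0.0186) and the co-receptor gene Nrp2 (-0.75 ± 0.152, limma adjusted p = 0.0419) fell. The other neuropilin gene, Nrp1, rose 2.13-fold (1.09 ± 0.115, limma adjusted p = 0.0157).

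Slc2a1, the glucose transporter Glut1, showed the smallest difference of the 10 genes. It stood at -0.34 and -0.10 in Pf1 KO lines 2 and 4, against 0.10 and 0.13 in Pf1 WT lines 5 and 6. Line 4 and line 5 were 0.19 apart, less than the 0.25 between the knockout lines. The difference was -0.33 ± 0.111 SE (limma adjusted p = 0.123, 95% interval -0.62 to -0.05), it was -0.21 without Pf1 KO line 2, and none of its 3 probe sets was called (-0.32, -0.40 and -0.28). Of 8 glucose transporters, Slc2a3 (Glut3) and Slc2a6 fell, none rose and 6 did not pass. Slc2a3 stood at -0.95 and -0.69 in Pf1 KO lines 2 and 4, against 0.82 and 0.62 in Pf1 WT lines 5 and 6, and fell 2.91-fold (-1.54 ± 0.128 SE, limma adjusted p = 0.0124). Slc2a6 fell 1.99-fold (-0.99 ± 0.113 SE, limma adjusted p = 0.0166).

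Ankrd37, an ankyrin-repeat protein gene with a well-described hypoxia response, stood at -0.62 and -0.13 in Pf1 KO lines 2 and 4, against 0.13 and 0.45 in Pf1 WT lines 5 and 6. It was the gene of the 10 with the widest gap between the wild-type lines, 0.31. The difference of -0.66 ± 0.198 SE did not pass (limma adjusted p = 0.0958, 95% interval -1.17 to -0.16), and without Pf1 KO line 2 it was -0.42. It passed when the least variable 25% of genes were left out of the fit (limma adjusted p = 0.0455), and its adjusted p ran from 0.0455 to 0.114 over the alternatives that kept all lines.

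The Hif subunits and the proteins that control them were set beside their targets. Of 18 measured genes, 2 fell, 2 rose and 14 did not pass, with a median difference of -0.041. Over all genes, 5.21% were called higher. Arnt, the shared partner subunit, fell 1.41-fold: it stood at -0.23 and -0.26 in Pf1 KO lines 2 and 4, against 0.27 and 0.22 in Pf1 WT lines 5 and 6 (-0.50 ± 0.0806 SE, limma adjusted p = 0.0277). Vhl, the recognition subunit of the ligase that removes Hif-alpha, fell 1.83-fold. It stood at -0.78 and -0.31 in Pf1 KO lines 2 and 4, against 0.32 and 0.34 in Pf1 WT lines 5 and 6 (-0.87 ± 0.169 SE, limma adjusted p = 0.0377). Eloc, the elongin C adaptor of that ligase, rose (0.94 ± 0.113, limma adjusted p = 0.0178). Cited2, which competes with Hif-alpha for the coactivators Ep300 and Crebbp and is itself a Hif target, rose 1.98-fold. Its values were 0.84 and 0.36 in Pf1 KO lines 2 and 4, against -0.38 and -0.39 in Pf1 WT lines 5 and 6 (0.98 ± 0.169 SE, limma adjusted p = 0.0311).

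The oxygen-labile subunits did not pass. Hif1a stood at -0.34 and -0.03 in Pf1 KO lines 2 and 4, against 0.31 and 0.11 in Pf1 WT lines 5 and 6 (-0.39 ± 0.14 SE, limma adjusted p = 0.143). Epas1 overlapped between the genotypes, at 0.17 and -0.15 in Pf1 KO lines 2 and 4 and 0.32 and -0.17 in Pf1 WT lines 5 and 6 (limma adjusted p = 0.889). Egln2, the hydroxylase gene outside the feedback loop, was at -0.094 (limma adjusted p = 0.546), and Hif1an, the asparaginyl hydroxylase that blocks coactivator binding, at -0.026 (limma adjusted p = 0.894). Hif protein, which is controlled mainly after transcription, was not measured.

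A wider list of 53 further Hif targets was examined, of which 49 were measured. Of these, 12 fell, 1 rose (Cited2) and 36 did not pass, where 6.95% of all genes were called lower and 5.21% higher. Negative differences were found in 46 of the 49, and in 50.8% of all genes. The median was -0.43. The smallest p-values were those of Slc2a3, of Ppp1r3c, a glycogen-targeting phosphatase subunit (-1.52 ± 0.132 SE, limma adjusted p = 0.0132), of the lipoprotein receptor gene Vldlr (-1.31 ± 0.131, limma adjusted p = 0.0154) and of the glycogen branching enzyme gene Gbe1 (-1.74 ± 0.19, limma adjusted p = 0.016). The secreted glycoprotein gene Stc2 (-1.84 ± 0.202, limma adjusted p = 0.016) and the fucosyltransferase gene Fut11 (-0.92 ± 0.133, limma adjusted p = 0.0224) followed. The remaining 6 called genes lay between -1.63 and -0.54. Slc2a3, Cited2 and Flt1, which was not called, also stand in the lists above.

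Of 16 listed glycolytic enzymes, Gpi1, Gapdh and Eno1 were not among the measured genes. Of the 13 measured, 4 fell, none rose and 9 did not pass, with a median difference of -0.26. Aldoc (-1.70 ± 0.148 SE, limma adjusted p = 0.0132), Eno2 (-0.70 ± 0.0813, limma adjusted p = 0.0167) and Pfkp (-0.88 ± 0.133, limma adjusted p = 0.0245) had the smallest p-values, and Hk1 was the other call, named after its value was seen (-0.52). The median of the 10 Hif targets outside glycolysis was -0.77 beside it, and the difference between the lists was not tested.

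**Figure D3:**
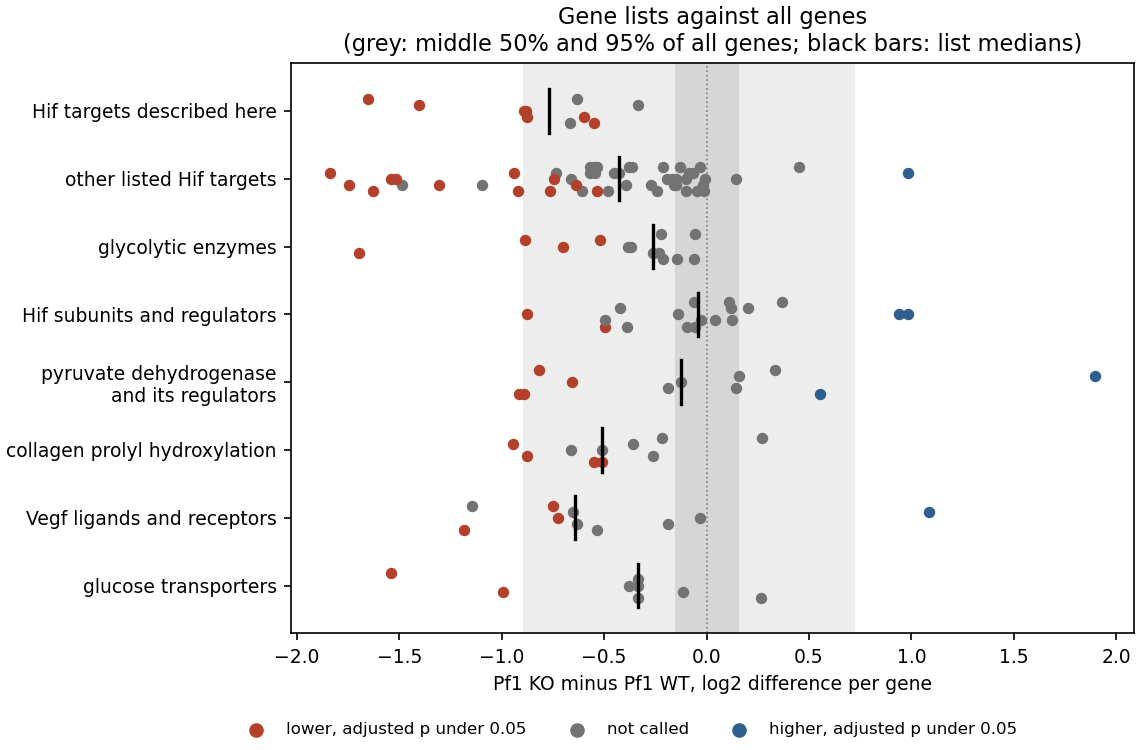
Fitted difference of each gene (x axis, Pf1 KO minus Pf1 WT, log2) in 8 gene lists, 1 row per list, with list medians as black bars and the spread of all genes as grey bands. The 10 Hif targets lie between -1.65 and -0.33, and the Hif subunits and regulators lie on both sides of 0 with 2 called in each direction.

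The knockout lines were not alike. In all 10 genes Pf1 KO line 2 was below Pf1 KO line 4, by 0.11 to 0.75 with a median of 0.29, where line 2 was the lower in 47.8% of all genes and in 62.8% of the 1265 genes called lower. Among the 12 further Hif targets called lower, line 2 was below line 4 in 10. The wild-type lines were 0.036 to 0.31 apart, with line 5 the higher in 7 of 10. They were closer to each other than the knockout lines were in every one of the 10 genes except Egln1 (0.11 between the knockout lines and 0.19 between the wild-type lines). Fibroblast marker means were also lower in line 2 than in line 4, at -0.62 and -0.27. So were those of macrophage markers (-0.27 and 0.44) and epithelial markers (0.31 and 0.53). Smooth muscle marker means (0.44 and 0.30) and endothelial marker means (0.074 and 0.058) were higher in line 2. The part of any of these lists in the gap between the knockout lines was not tested. Measured from the mean of the Pf1 WT lines, the median of the 10 genes was -0.92 in Pf1 KO line 2 and -0.59 in Pf1 KO line 4.

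**Figure D4:**
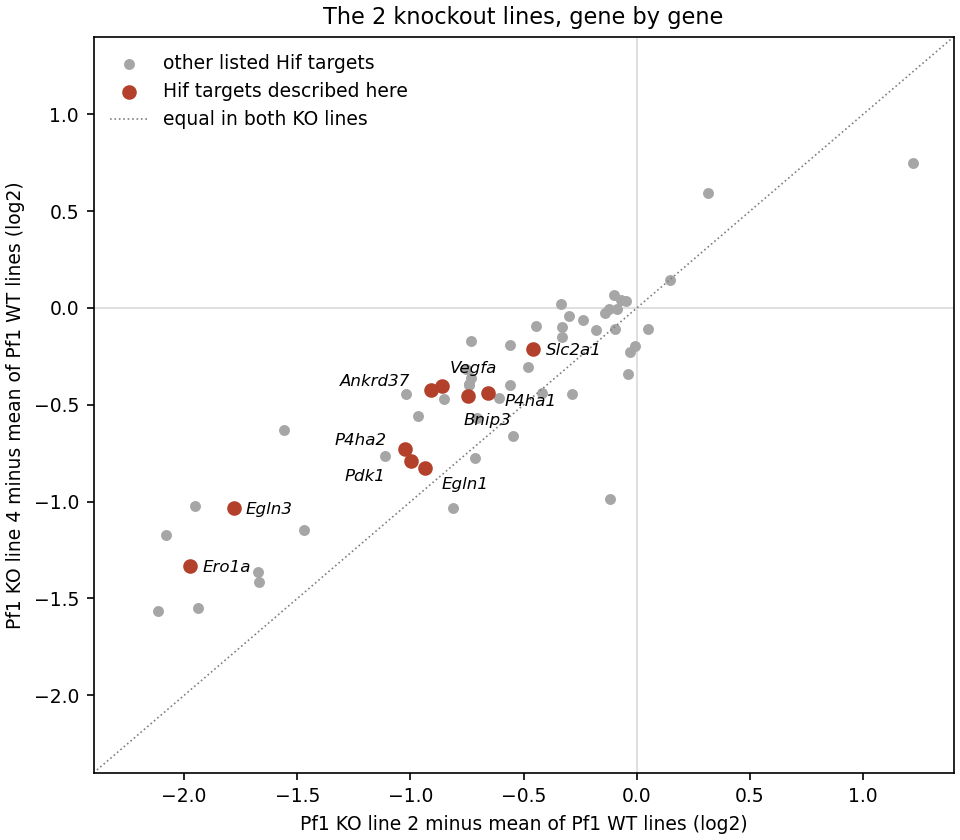
Each gene's value in Pf1 KO line 2 (x axis) and Pf1 KO line 4 (y axis), both minus the mean of the Pf1 WT lines, log2. The 10 Hif targets (red) and 36 of the 49 further targets (grey) lie above the dotted line of equal values, that is, lower in line 2.

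Calls rested on having all 4 lines. Limma called 0 of the 10 genes without Pf1 KO line 2, 4 without Pf1 KO line 4, and 0 without Pf1 WT line 5 or Pf1 WT line 6. At an unadjusted p under 0.05 these fits held 8, 10, 8 and 7 of the 10 genes as lower, against 9.95%, 10.7%, 13.5% and 14.6% of all genes. Each of these fits sets a lone line against 2, so its 1 residual degree of freedom comes from the other genotype and the lone line is assumed to vary like it. Counts of calls from these fits are therefore not given. With all lines, 2212 of the 18193 genes were called at an adjusted p under 0.05, counting both directions. Each fit with 1 line left out called far fewer over all genes. It also called fewer of the 10 genes and fewer of the 49 further Hif targets as lower.

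The genes outside all lists whose values lay nearest to the mean profile of the 10 genes (Euclidean distance over the 4 lines) were Kcnk6, Fbxo10, Trim12c, Tspo and 5830408C22Rik, at distances of 0.0398, 0.0414, 0.0517, 0.0860 and 0.0916. The mean profile was -0.67 and -0.30 in Pf1 KO lines 2 and 4 and 0.38 and 0.35 in Pf1 WT lines 5 and 6. By correlation over the 4 lines, which leaves size out, 291 of 18010 genes outside the lists (1.62%) were above 0.99 with this profile.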

How the data were processed

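RNA from 4 MEF lines was measured on Affymetrix arrays after biotin labelling. The deposited log2 values were made with Affymetrix Expression Console and RMA, per the submitters' processing notes. Their versions were not found there, and the log base was inferred from RMA. Row medians of the table were all 0 (tolerance 1e-06), so a centring step that no label describes had removed signal levels. Detection calls and scan batches were not used here, and precision is limited by there being 4 arrays.

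Column medians were 0.00253 and 0 in Pf1 KO lines 2 and 4 and 0.00455 and -0.00871 in Pf1 WT lines 5 and 6. The 45101 probe sets matched the annotation of a larger array of the same family than the one named in the series text. Of these, 64 were controls, 34945 had 1 gene, 932 several and 9160 none. Symbols were checked by Entrez identifier against RefSeq (GRCm38.p6; 34741 matched, 0 changed). Probe sets of 1 gene were averaged into 18193 genes; control and multi-gene probe sets did not enter these means.

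Pf1 KO minus Pf1 WT was estimated in R 4.3.3 with limma 3.58.1 (lmFit, eBayes) over all genes, and again over 45037 probe sets, without covariates, leaving 2 residual degrees of freedom. P-values were adjusted by Benjamini-Hochberg over all features, and features under 0.05 were called (12.2% of genes in either direction). Named genes were all 10 members, every called gene of the short lists, preset Hif regulators, and the 6 and 3 genes of smallest p among further Hif targets and glycolytic enzymes, plus called genes against the common direction. Paralogs, P4hb and Phf12 were named beside these. Members and lists were chosen with earlier results of these data known. Alternatives were quantile normalisation, centring of arrays, array weights, robust eBayes, the median of probe sets, probe sets of plain suffix (none of _s_at, _x_at or _a_at), leaving out the 25% of genes with the smallest spread, and leaving out each line.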

Additional observations from a re-analysis of the deposited data

How the results depend on the processing

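All 10 genes kept a negative difference under the 7 alternatives that kept all lines, and no member was called higher under any alternative run. With 1 line left out the sign could not turn, since both Pf1 KO lines lay below both Pf1 WT lines in all 10 genes. The number called lower was 6 to 9 under the 7 alternatives that kept all lines, and smaller in each fit with 1 line left out. Under those 7, 5.98% to 10.2% of all genes tested were called lower, against 6.95% in the main setting, and the 9 stood beside 10.2% (1390 of 13644 genes, without the least variable 25%). Beyond Bnip3 (array weights, median of probe sets and probe sets of plain suffix, each at -0.60), the calls that changed with all lines kept were those of Vegfa, called with quantile normalisation (-0.59), with probe sets of plain suffix (-0.88) and without the least variable 25% of genes (-0.63), and of Ankrd37, called without those genes (-0.66). The further Hif targets called lower were 21 of the 43 left without those genes, beside the same 10.2% of all genes, with a median of -0.53. That filter tests fewer genes and also moves the moderated standard errors (Ankrd37 0.189 against 0.198, Egln1 0.133 against 0.105). Its spread was taken over all lines of both genotypes and so includes the genotype difference. It therefore tends to keep genes that differ, and the calls it added are a description. With 1 line left out, differences ran from -0.98 to -0.78 (Egln1), -1.78 to -1.03 (Egln3), -0.999 to -0.79 (Pdk1), -0.75 to -0.45 (Bnip3), -1.97 to -1.33 (Ero1a), -0.66 to -0.44 (P4ha1), -1.02 to -0.73 (P4ha2), -0.86 to -0.40 (Vegfa), -0.91 to -0.42 (Ankrd37) and -0.46 to -0.21 (Slc2a1), the lowest without Pf1 KO line 4 except for Egln1, whose lowest was without Pf1 WT line 6. The median of the 10 genes ran from -0.92 to -0.59, that of the further targets from -0.48 to -0.34, and the further targets called numbered 0 to 9 lower and 0 to 1 higher. No paired analysis was possible because no line number occurs in both genotypes. Signal over background is not in the centred values, so a filter on dim probe sets could not be run.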
